A study of Rattus norvegicus with 31 samples.

Results

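The rat gastrocnemius genes described here are those whose symbols name subunits of voltage-gated and related ion channels: the Kcn potassium channel genes, the numbered Scn sodium channel genes, the Cacna, Cacnb and Cacng calcium channel genes and the Clcn genes. They were picked by symbol alone, and 54 of the 11289 genes in the deposited count table matched. The epithelial channel gene Scnn1a and the splicing factor gene Scnm1 fell outside the pattern. The 4 Clcn genes encode chloride channels and chloride-proton exchangers, so "cation channel" does not cover them. The animals were female Sprague Dawley rats aged 7 months, fed chow 5001, and the gastrocnemius, the large calf muscle, was taken from each. They formed 4 groups: 8 controls and 7 Ucp1 knockouts kept at room temperature, and 8 controls and 8 Ucp1 knockouts kept at 4 °C for 14 days. Ucp1 encodes the uncoupling protein of brown fat; the labels name the genotype "Ucp1 KO" without saying how the allele was made, and Ucp1 itself was not analysed here, so the genotypes rest on the labels. Each library is 1 rat, sequenced from the 3′ ends of transcripts (QuantSeq), and p-values measure the spread between rats.

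Skeletal muscle fires and contracts through these channels. Voltage-gated sodium channels carry the upstroke of the action potential, voltage-gated potassium channels end it, and inward rectifier potassium channels together with the chloride channel Clcn1 hold the resting potential of the fibre. The L-type calcium channel Cacna1s is the voltage sensor that opens the ryanodine receptor of the sarcoplasmic reticulum, and beta, gamma and other auxiliary subunits set where a pore subunit sits and how it gates.

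The 31 libraries held between 6559971 and 11859690 counts. Levels below are counts-per-million (CPM) after normalization between libraries by the trimmed mean of M-values. At these depths 3 counts, the limit that a count of 0 allows, corresponded to 0.253 to 0.457 CPM, which covers counting error only. Of the 54 members, 42 had enough counts to be tested and 12 did not (among them Kcna2, Kcnc4, Kcnd1, Kcnq1, Kcns3, Kcnj13, Kcnmb2, Kcnmb4, Cacna1c, Cacna1h and Cacnb3). Markers of skeletal muscle were abundant in every library, their 6 measured genes summing to between 76979 and 122160 CPM. On the second principal component, 2 room temperature control libraries, animals 1 and 2, lay far from the rest (scores of -62.3 and -79.8). Another 7 libraries, from all 4 groups, had scores above 35 on the first component, which held 35.3% of the variance: animals 1, 9, 12, 17, 23, 25 and 28. Results are given again without these libraries where a call changes or a larger difference moves by more than 1.5 times. In whole muscle, fewer cells of a type and less RNA per cell cannot be told apart.

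Members spanned more than 2 orders of magnitude, and several auxiliary subunits stood well above most pore-forming ones. Cacna2d1, the extracellular subunit that brings calcium channels to the membrane, had a mean of 297 CPM, Scn4b 231 CPM, Kcnj11 (the pore of the ATP-sensitive potassium channel) 212 CPM, and the calcium channel gamma subunits Cacng6 and Cacng1 had 168 and 124 CPM. The pore subunits regarded as the main ones of muscle were much lower: Cacna1s had a mean of 7.55 CPM, Clcn1 5.16 CPM and the sodium channel Scn4a 2.33 CPM. A count of 3′ tags does not scale with transcript length but depends on whether the annotated 3′ end is the one the tissue uses, and the part of this in the low pore subunit values was not tested.

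**Figure D1:**
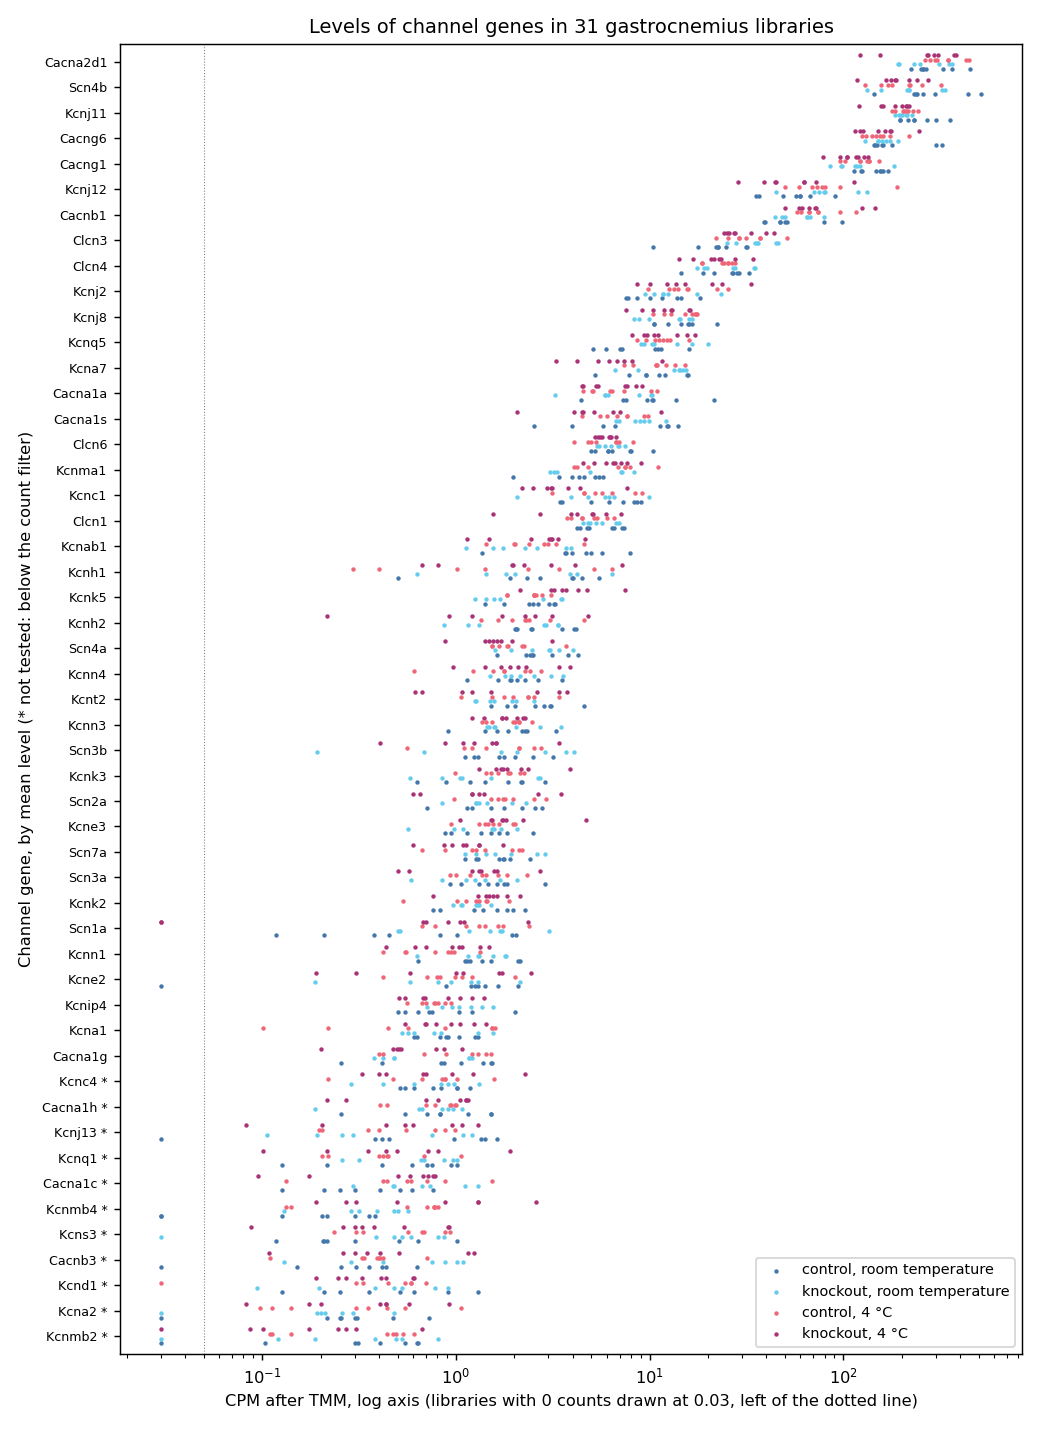
Level of channel genes in each of the 31 libraries, as CPM on a log axis, 1 point per library coloured by group and genes ordered by mean. Cacna2d1 has a mean of 297 CPM and Scn4a one of 2.33 CPM, and the 4 groups overlap.

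Promoter sequence was taken from RefSeq (assembly GRCr8), whose table held an entry for 33 of the 54 members in 38 windows; the 250 bases before each transcription start were searched on both strands. GC boxes (GGGCGG) lay in 21 of the 38 member windows (55.3%), against 30.5% of all 33469 promoters. Windows of 1 gene were counted separately and can overlap, as do those of Cacna2d1 starting at 20329863 and 20329875, which both hold GC boxes. E-boxes (CANNTG), the hexamer bound by myogenic basic helix-loop-helix factors, lay in 21 (55.3%) against 65.5% of all, and TATA boxes (TATAAA) in 3 (7.89%) against 12.9%. The median GC content was 62.8% for member windows and 51.2% for all promoters, and the part of base composition in these shares was not tested. Windows of 3 genes are shown because they hold different arrangements of these letters in a muscle pore subunit, a two-pore potassium channel and an abundant auxiliary subunit whose levels are described next. Each runs 5′ to 3′ and ends at the base before the start, with matches in capitals; a match is a description of the letters and not a binding site. Cacna1s has E-boxes starting at -197 and -62 and a TATA box at -144, Kcnk5 has 4 GC boxes at -101, -89, -78 and -35, and Scn4b has E-boxes at -208 and -94.
Cacna1s, chr13:50045418-50045667, plus strand: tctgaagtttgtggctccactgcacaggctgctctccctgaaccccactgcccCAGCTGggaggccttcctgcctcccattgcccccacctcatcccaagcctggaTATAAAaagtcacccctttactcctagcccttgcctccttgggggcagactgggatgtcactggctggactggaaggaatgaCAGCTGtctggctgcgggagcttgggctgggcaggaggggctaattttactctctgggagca
Kcnk5, chr15:4171375-4171624, plus strand: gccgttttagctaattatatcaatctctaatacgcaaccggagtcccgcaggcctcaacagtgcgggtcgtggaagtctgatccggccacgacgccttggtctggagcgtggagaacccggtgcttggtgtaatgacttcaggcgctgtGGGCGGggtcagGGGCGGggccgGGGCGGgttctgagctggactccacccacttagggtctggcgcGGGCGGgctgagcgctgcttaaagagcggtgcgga
Scn4b, chr8:54343623-54343872, plus strand: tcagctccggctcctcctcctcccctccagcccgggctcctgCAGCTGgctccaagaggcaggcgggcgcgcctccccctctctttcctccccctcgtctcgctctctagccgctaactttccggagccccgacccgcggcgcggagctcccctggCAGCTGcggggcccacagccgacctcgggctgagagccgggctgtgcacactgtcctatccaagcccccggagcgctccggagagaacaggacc

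Across the 7 comparisons of the design, few channel genes changed. Cold was followed by lower Kcna7 in the knockouts and, over both genotypes, by lower Kcnn1 and Scn4a; no channel gene passed the test for genotype. The test was the quasi-likelihood F-test of edgeR, with p adjusted by Benjamini and Hochberg's method over 10082 genes. Cold in the controls called 0 of 42 members, in a background of 0.853% of all genes; 8 members had an unadjusted p under 0.05 (against 14.2% of all genes), and DESeq2 called 0 (background 2.03%). Cold in the knockouts called 1 of 42, in a background of 1.38% in either direction and 0.357% lower; 8 had an unadjusted p under 0.05 (against 14.3% of all genes), and DESeq2 called 3 (background 2.91%). Cold averaged over both genotypes called 2 of 42, or 4.76%, in a background of 5.65% in either direction and 1.98% lower. Of the 42, 11 had an unadjusted p under 0.05 (26.2% against 19.5%), and DESeq2 called 4 of 54 (background 7.04%). With 1 and 2 calls, the shares stand near those of all genes. The knockout called 0 members at room temperature (background 0%; 7 at unadjusted p under 0.05, or 16.7%, against 7.06% of all genes), 0 in the cold (background 0.00992%; 4 unadjusted, 9.52% against 6.28%) and 0 over both temperatures (background 0%; 6 unadjusted, 14.3% against 6.4%), and the interaction of cold with genotype called 0 (background 0%; 5 unadjusted, 11.9% against 7.31%). DESeq2 called 0 of 54 members in each of these 4, in backgrounds of 0.00886%, 0.0709%, 0.0797% and 0.00886%.

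Without a threshold, members leaned lower in the cold and also in the knockouts. The median log2 change of the 42 was -0.13 in controls and -0.10 in knockouts, against -0.03 and 0.02 over all genes. Of the 42, 28 were lower in cold controls and 27 in cold knockouts (66.7% and 64.3%, against 53.9% and 46.6% of all genes). For the knockout the medians were -0.12 at room temperature and -0.07 in the cold, against -0.03 and 0.04 over all genes. There 27 and 25 of the 42 were lower (64.3% and 59.5%, against 54.6% and 42.7% of all genes). The cold comparisons and the genotype comparisons share groups, so these medians and shares are not independent of each other.

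**Figure D2:**
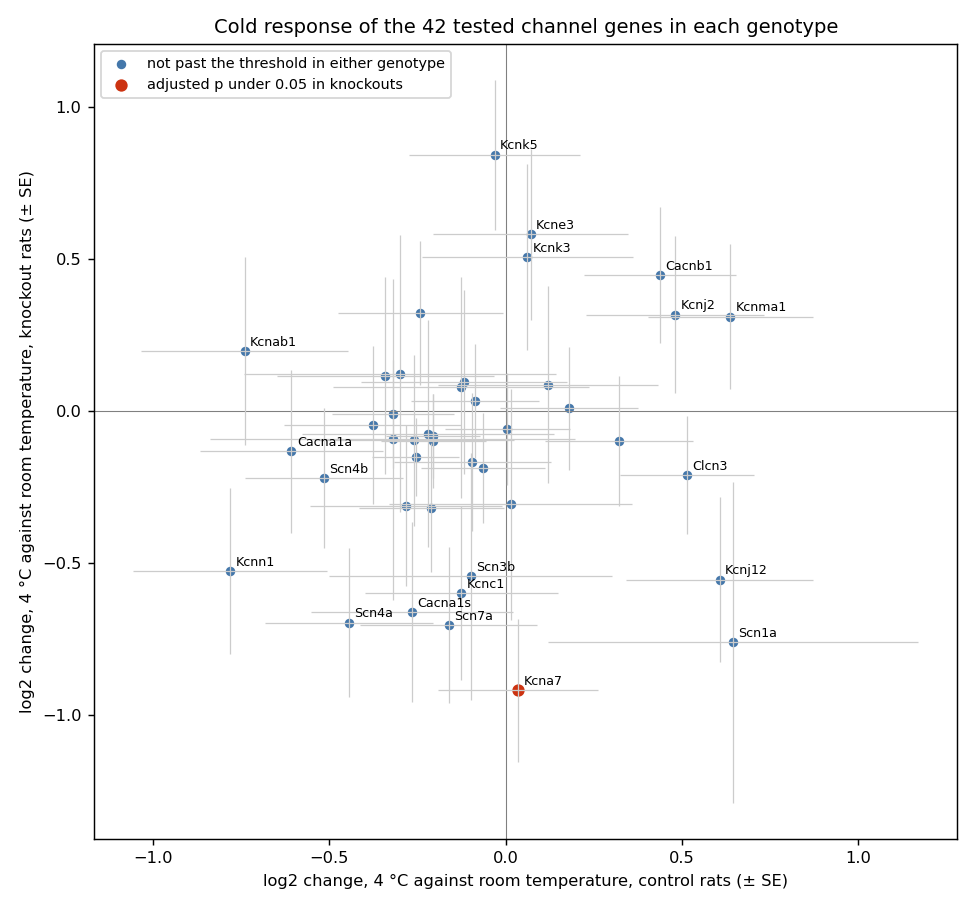
Log2 change with cold in controls (horizontal) and in knockouts (vertical) for the 42 tested channel genes, with SE bars. Kcna7 lies near 0.04 and -0.92, Kcnk5 near -0.03 and 0.84 and Kcnj12 near 0.61 and -0.56, while most genes lie within 0.5 of 0 on both axes.

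Among the voltage-gated potassium channel pore genes (12 members, 7 tested), Kcna7 was the only one to pass a test. Kcna7 encodes a shaker-type delayed rectifier found in skeletal muscle and heart. It stood at 5.22, 10.4 and 15.9 CPM (lowest, median, highest) in controls at room temperature and at 6.66, 14.3 and 15.5 CPM in knockouts at room temperature. At 4 °C it stood at 7.37, 10.9 and 15.3 CPM in controls and at 3.30, 6.46 and 11.6 CPM in knockouts. The cold knockouts had the lowest median, and their range overlapped that of each other group. Kcna7 fell by 0.92 on the log2 scale with cold in knockouts (SE 0.24, adjusted p = 0.0414), while its difference in controls was 0.04 ± 0.23 (adjusted p = 0.956). The difference between those cold effects was -0.96 ± 0.33 with an adjusted p of 0.538, and the cold knockouts lay -0.75 ± 0.23 from the cold controls (adjusted p = 0.576), so the response was not shown to differ by genotype. The Kcna7 call was lost on leaving out any 1 of 11 libraries (animals 9, 11, 12, 13 and 14 of the room temperature knockouts and 24, 25, 26, 27, 30 and 31 of the cold knockouts), with adjusted p from 0.0107 to 0.0848 over all 31 omissions, and with only the groups compared in the fit it was 0.111. Over both genotypes its cold difference was -0.44 ± 0.16 (adjusted p = 0.109). That difference passed without control animals 1 and 2 (-0.53, adjusted p = 0.0320) and without animal 28 (-0.52, adjusted p = 0.0405). It also passed without the 7 animals scoring high on the first component (-0.60, adjusted p = 0.0406). With the first component as covariate it was -0.51 (adjusted p = 0.0199), in a fit that called 12.6% of all genes, against 5.65%.

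The other voltage-gated potassium pore genes did not pass. Kcnc1, a fast delayed rectifier whose gene is the neighbour of the myogenic factor gene Myod1, was also lowest in cold knockouts, with medians of 6.76 and 5.89 CPM in controls and knockouts at room temperature and 5.45 and 3.12 CPM in the cold. Its cold difference in knockouts was -0.60 ± 0.29 (adjusted p = 0.331), or -0.40 without animal 9 and -0.37 without the 7 animals high on the first component. Kcnq5, a channel of the M-current family, had group medians of 8.93 to 11.4 CPM and differed between genotypes at room temperature by 0.47 ± 0.22 (adjusted p = 0.698). Kcnh1 and Kcnh2, of the ether-a-go-go family, had group means between 2.11 and 3.18 CPM, and Kcna1 lay between 0.859 and 0.932 CPM in every group. The 5 untested pore genes, Kcna2, Kcnc4, Kcnd1, Kcnq1 and Kcns3, had group means between 0.234 and 0.874 CPM.

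Potassium channel auxiliary genes (6 members, 4 tested) had no call. Kcnab1, a cytoplasmic beta subunit that speeds inactivation, was highest in controls at room temperature, with 1.36, 4.33 and 7.93 CPM as lowest, median and highest. It stood at 1.13, 2.28 and 3.94 CPM in knockouts at room temperature, at 1.42, 2.61 and 4.58 CPM in cold controls and at 1.14, 3.07 and 4.65 CPM in cold knockouts. The groups overlapped, and the differences from that first group were -0.74 ± 0.29 with cold (adjusted p = 0.244) and -0.89 ± 0.31 with knockout (adjusted p = 0.698); these share their control libraries. Kcne2, Kcne3 and Kcnip4, single-pass and calcium-binding partners of other pores, had group means between 0.763 and 2.04 CPM. Kcnmb4, a beta subunit of the large-conductance calcium-activated channel, was below the count filter, with group means of 0.198, 0.382, 0.583 and 0.919 CPM in controls and knockouts at room temperature and then in the cold. With no filter its cold difference over both genotypes was 1.41 ± 0.37 (adjusted p = 0.0192), and in DESeq2 it was 1.45 (adjusted p = 0.00736). These values rest on few counts: 0 to 3 a library in controls at room temperature, whose mean lay below the level of 3 counts. In cold knockouts animal 31 alone held 30 of the 78 counts (2.60 CPM, against a group median of 0.684 CPM).

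The calcium- and sodium-activated potassium channel genes (5 members, all tested) gave 1 call, in the cold over both genotypes. Kcnn1, a small-conductance calcium-activated channel, stood at 0.635, 1.27 and 2.14 CPM in controls and 0.632, 1.32 and 1.82 CPM in knockouts at room temperature. The cold values were 0.422, 0.847 and 1.33 CPM in controls and 0.434, 0.995 and 1.49 CPM in knockouts. Both cold groups had the lower medians and both overlapped their room temperature groups. Kcnn1 fell by 0.65 on the log2 scale (SE 0.19, adjusted p = 0.0393), with separate differences of -0.78 ± 0.27 in controls and -0.53 ± 0.27 in knockouts (adjusted p = 0.179 and 0.378). These values rest on 3 to 20 counts a library, and the call was lost on leaving out any 1 of 15 libraries (animals 1, 2, 5, 10, 11, 13, 14, 15, 16, 19, 22, 23, 24, 25 and 26; adjusted p from 0.0202 to 0.0676) and without control animals 1 and 2 together (-0.52, adjusted p = 0.100). Without those animals the difference in controls was -0.51, and without the 7 high on the first component that in knockouts was -0.82.

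Kcnn3, a related small-conductance channel that appears in muscle after denervation, had medians of 2.02, 1.60, 2.00 and 1.78 CPM in controls and knockouts at room temperature and then in the cold. Its cold difference was -0.13 ± 0.16 over both genotypes. Kcnma1, the large-conductance pore, differed the other way from Kcnn1: its medians were 4.45 and 4.91 CPM at room temperature and 7.14 and 6.56 CPM in the cold, in controls and knockouts. The difference over both genotypes was 0.47 ± 0.17 with an adjusted p of 0.0916. With the first component as covariate the adjusted p was 0.0384, in a fit that called 12.6% of all genes, against 5.65%. Kcnn4 and Kcnt2, an intermediate-conductance and a sodium-activated channel, had group means between 1.73 and 2.69 CPM.

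**Figure D3:**
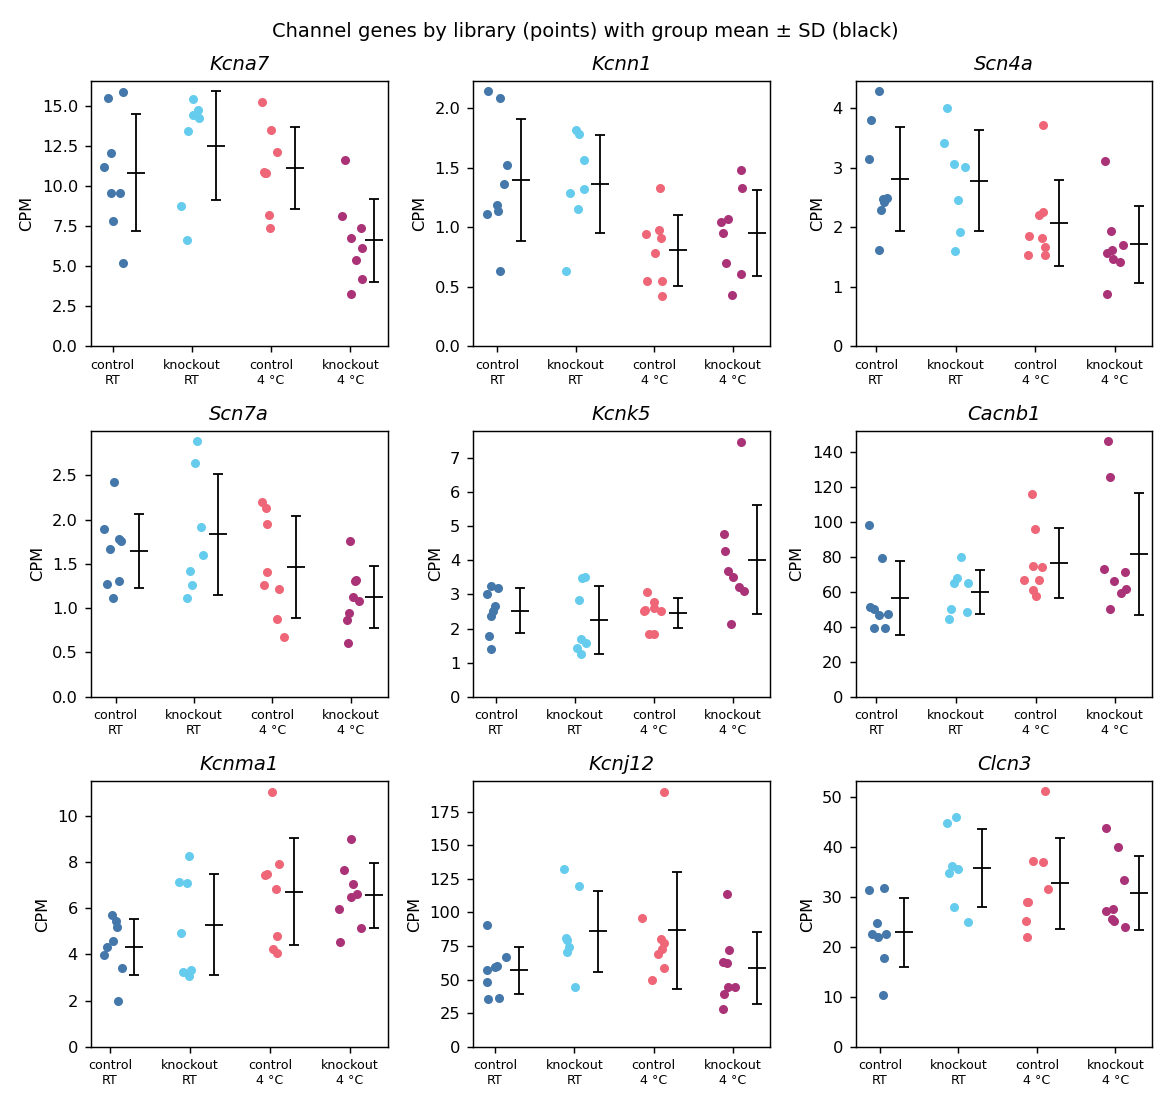
CPM in each library (points) for 9 channel genes, with the mean ± SD of each group beside the points (8, 7, 8 and 8 rats; RT is room temperature). Kcna7 is lowest in the cold knockouts (median 6.46 CPM), Kcnn1 and Scn4a are lower in both cold groups, Scn7a has its lowest median in the cold knockouts (1.10 CPM), and all of these overlap other groups.

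The inward rectifiers (5 members, 4 tested) gave no call in any comparison. Kcnj11, which forms the ATP-sensitive channel with the sulfonylurea receptor encoded by its neighbour gene Abcc8, was highest in controls at room temperature, with 195, 232 and 355 CPM as lowest, median and highest. Knockouts at room temperature spanned 184 to 227 CPM, cold controls 179 to 244 CPM and cold knockouts 120 to 220 CPM. Over both temperatures Kcnj11 lay -0.24 ± 0.09 lower in knockouts, with an adjusted p of 0.716, and without control animals 1 and 2 the difference was -0.15. Kcnj8, the vascular ATP-sensitive pore and neighbour of Abcc9, had medians of 15.2, 14.2, 15.9 and 12.4 CPM in the same order of groups.

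Kcnj12, a strong inward rectifier of muscle, gave opposite signs in the genotypes. It stood at 35.6, 58.3 and 90.5 CPM in controls and 44.7, 79.8 and 132 CPM in knockouts at room temperature. In the cold the controls stood at 49.8, 75.0 and 190 CPM and the knockouts at 28.5, 53.7 and 114 CPM. The cold difference was 0.61 ± 0.26 in controls and -0.56 ± 0.27 in knockouts; the interaction was -1.16 ± 0.38 with an adjusted p of 0.523, and the groups overlapped. Without cold control animal 17, which held the 190 CPM, the difference in controls was 0.34; without the 7 animals high on the first component it was 0.19 and the interaction -0.76. Kcnj2, the classical inward rectifier that sets the resting potential, had medians of 10.8 and 11.7 CPM at room temperature and 14.9 and 14.4 CPM in the cold. Its cold difference over both genotypes was 0.40 ± 0.18 (adjusted p = 0.210). With the first component as covariate it was smaller, 0.27 (adjusted p = 0.0422), in a fit that called 12.6% of all genes, against 5.65%. In controls the Kcnj2 cold difference was 0.48, or 0.26 with the covariate. In knockouts it was 0.32, or 0.12 without animal 28 and 0.50 without animal 12.

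The 3 two-pore potassium genes, which carry background leak current, all had positive cold differences in knockouts and none passed. Kcnk5, an acid-sensitive leak channel whose upstream window with 4 GC boxes is printed above, stood at 1.41, 2.58 and 3.25 CPM in controls and 1.25, 1.69 and 3.52 CPM in knockouts at room temperature. Cold animals stood at 1.83, 2.53 and 3.08 CPM in controls and 2.15, 3.60 and 7.49 CPM in knockouts. The cold knockouts had the highest median but their lower values overlapped every other group. The cold difference in knockouts was 0.84 ± 0.25 (adjusted p = 0.0698) against -0.03 ± 0.24 in controls. Its adjusted p was 0.0335 in DESeq2 and 0.0209 once the first component entered as covariate. That covariate fit called 6.69% of all genes, against 1.38% without it. Over 31 omissions of 1 library the adjusted p ran from 0.0327 (without animal 28, the only omission that passed) to 0.194. The difference ran from 0.65 to 0.97. Animal 30 held 91 of the 342 counts of the cold knockouts. Kcnk2 and Kcnk3, a stretch-sensitive and an acid-sensitive leak channel, had cold differences in knockouts of 0.32 and 0.51.

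Sodium channel pore genes (6 members, 5 tested) gave 1 call, in Scn4a, the adult skeletal muscle sodium channel. Scn4a stood at 1.62, 2.48 and 4.29 CPM in controls and 1.60, 3.01 and 4.00 CPM in knockouts at room temperature. In the cold it stood at 1.53, 1.84 and 3.72 CPM in controls and 0.875, 1.59 and 3.12 CPM in knockouts. Both cold groups were lower, and all 4 groups overlapped. Like Kcnn1 and Kcnc1, Scn4a overlaps an uncharacterised locus in GRCr8 that was not analysed here. Over both genotypes Scn4a fell by 0.57 on the log2 scale (SE 0.17, adjusted p = 0.0418), with -0.44 ± 0.24 in controls and -0.70 ± 0.24 in knockouts (adjusted p = 0.388 and 0.148). With the first component as covariate the difference in knockouts passed (-0.68, adjusted p = 0.0478), in a fit that called 6.69% of all genes, against 1.38%. The call was lost on leaving out any 1 of 18 libraries (animals 1, 4, 5, 9, 11, 12, 14, 16, 18, 20, 21, 22, 23, 25, 26, 27, 29 and 30; adjusted p from 0.0119 to 0.0763), without control animals 1 and 2 together (-0.52, adjusted p = 0.0617) and without the 7 animals scoring high on the first component (-0.55, adjusted p = 0.0801).

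**Figure D4:**
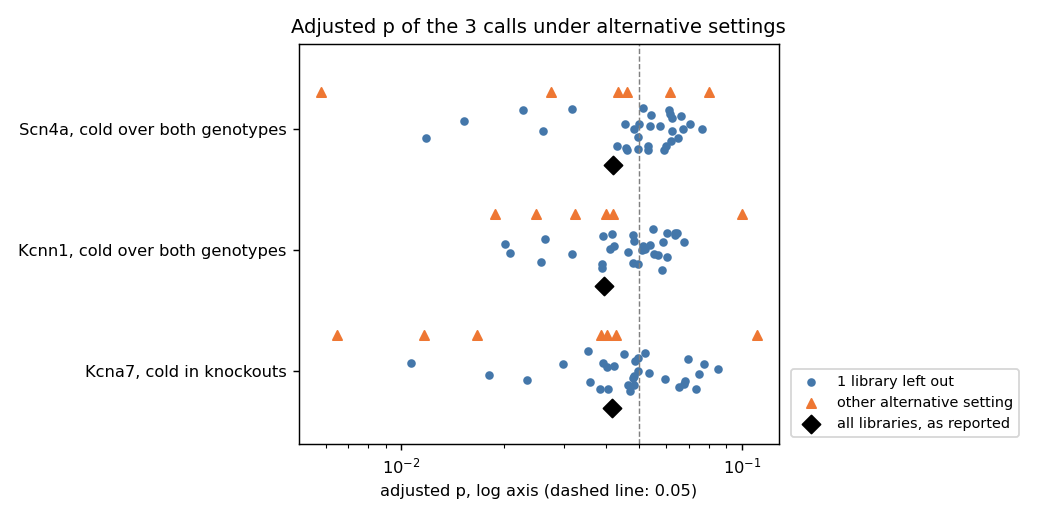
Adjusted p of the 3 calls (Kcna7 in cold knockouts, Kcnn1 and Scn4a with cold over both genotypes) under each other setting and with each library left out in turn, on a log axis with the 0.05 threshold as a line. Points lie on both sides of the line for all 3 genes, between 0.0107 and 0.0848 for the omissions of Kcna7.

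The other sodium channel pores did not pass. Scn7a, a sodium channel relative found in Schwann cells, neurons and muscle, had medians of 1.71, 1.60, 1.34 and 1.10 CPM in controls and knockouts at room temperature and then in the cold, and a cold difference in knockouts of -0.71 ± 0.26 (adjusted p = 0.169). The 8 tested neuron and Schwann cell markers summed to 142 to 334 CPM in knockouts at room temperature and 160 to 298 CPM in cold knockouts. In controls at room temperature they summed to 107 to 371 CPM. Of these 8 markers, 1 passed, Uchl1 (higher with cold over both genotypes). Their part in the Scn7a values was not tested. The brain channels Scn1a, Scn2a and Scn3a had group means between 0.848 and 1.89 CPM. Of the beta subunits, Scn4b, whose upstream window with its pair of E-boxes is printed above, had medians of 249, 218, 199 and 185 CPM in the same order and a cold difference in controls of -0.52 ± 0.22 (adjusted p = 0.286). Control animals 1 and 2 had 438 and 517 CPM of Scn4b against 144 to 296 CPM in the other 6, and without them that difference was -0.18 (adjusted p = 0.691); without the 7 animals high on the first component it was -0.29. Scn3b had group means between 1.47 and 2.18 CPM.

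Calcium channel genes (5 pore and 5 auxiliary members, 3 and 4 tested) gave no call. Cacna1s, the voltage sensor, stood at 2.52, 8.99 and 14.0 CPM in controls and 6.74, 8.94 and 12.1 CPM in knockouts at room temperature. In the cold it stood at 4.47, 7.20 and 9.84 CPM in controls and 2.06, 4.84 and 11.4 CPM in knockouts. The ranges overlapped, and the difference over both genotypes was -0.46 ± 0.21 (adjusted p = 0.195); it was -0.60 ± 0.18 without control animals 1 and 2 (adjusted p = 0.0370) and -0.71 ± 0.20 without the 7 animals scoring high on the first component (adjusted p = 0.0356). Cacna1a, the pore of the motor nerve terminal, had medians of 9.97, 6.12, 6.31 and 6.46 CPM in controls and knockouts at room temperature and then in the cold, and a cold difference in controls of -0.61 ± 0.26 (adjusted p = 0.273). Control animal 2 stood at 21.6 CPM of Cacna1a against 4.44 to 13.6 CPM in the other 7, and without it the difference was -0.38; without animals 1 and 2 it was -0.34. Cacna1g, a low-voltage-activated pore, lay -0.54 ± 0.26 lower in knockouts over both temperatures (adjusted p = 0.779).

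Of the auxiliary subunits, Cacnb1, which couples the voltage sensor to the ryanodine receptor, stood at 39.0, 48.7 and 98.3 CPM in controls and 44.2, 64.8 and 79.5 CPM in knockouts at room temperature. In the cold it stood at 57.7, 70.2 and 116 CPM in controls and 50, 68.8 and 146 CPM in knockouts. Its cold difference was 0.44 ± 0.22 in controls and 0.45 ± 0.22 in knockouts. Over both genotypes it was 0.44 ± 0.16 with an adjusted p of 0.0901. The adjusted p came to 0.00811 without control animals 1 and 2 (difference 0.60) and 0.0270 without animal 2 alone (difference 0.53). Once the first component entered as covariate it was 0.0296, with a smaller difference of 0.33. That fit called 12.6% of all genes, against 5.65%. Without the 7 animals high on that component the difference over both genotypes was 0.27 (adjusted p = 0.244). The difference in controls was 0.74 without animals 1 and 2, and that in knockouts 0.28 without animal 28. Cacnb1 overlaps the ribosomal protein gene Rpl19 in GRCr8, and the strand setting of the counting is not known here, so reads of both genes may not be told apart. Cacng1 had medians of 151, 114, 127 and 111 CPM in controls and knockouts at room temperature and then in the cold, and lay -0.24 ± 0.10 lower in knockouts over both temperatures (adjusted p = 0.744). Cacng6 spanned 144 to 323 CPM in controls at room temperature and 115 to 246 CPM in cold knockouts. Control animals 1 and 2 had 323 and 300 CPM of Cacng6. Its cold difference in controls was -0.32, and without these animals it was 0.0036 (adjusted p = 0.992). Cacna2d1 spanned 122 to 381 CPM in cold knockouts, with its highest median, 326 CPM, in cold controls.

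The 4 Clcn genes gave no call. Clcn1, the chloride channel that stabilises the resting fibre, had medians of 5.64 and 5.27 CPM at room temperature and 4.82 and 4.63 CPM in the cold, in controls and knockouts, with a cold difference of -0.27 ± 0.15 (adjusted p = 0.336). Clcn3, an endosomal exchanger, was lowest in controls at room temperature, at 10.4, 22.5 and 31.9 CPM, against 25, 35.7 and 46.0 CPM in knockouts at room temperature. Cold controls stood at 22, 30.3 and 51.2 CPM and cold knockouts at 24.1, 27.4 and 43.8 CPM. The knockout difference at room temperature was 0.64 ± 0.20 (adjusted p = 0.698) and the cold difference in controls 0.51 ± 0.19 (adjusted p = 0.200); both are set against the same 8 control libraries. Clcn4 and Clcn6, also intracellular exchangers, had group means of 22.6 to 25.8 CPM and 5.91 to 6.90 CPM.

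Genes that work beside the channels were counted from lists chosen by function, with earlier results of these data known. Of 17 tested genes of excitation-contraction coupling (ryanodine receptors, junctophilins, Stac3 and others) and 12 of the sodium-potassium pump and related transporters, 0 passed in any comparison. With cold over both genotypes the share over all genes was 5.65%, against which the next counts are read. Of 18 genes of the synapse and of channel anchoring, 2 rose and 1 fell (16.7%): the acetylcholine receptor subunits Chrnd (1.40 ± 0.19) and Chrna1 (1.05 ± 0.28), and acetylcholinesterase, Ache, which fell by 0.87 (SE 0.19). Chrnd also rose in each genotype alone. Of 35 genes of other channel families, 2 rose (5.71%, near the share over all genes), Tmem38b (0.65 ± 0.12), a counter-ion channel of the sarcoplasmic reticulum, and P2rx5 (0.74 ± 0.18), an ATP-gated channel.

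Over both genotypes, most slow fibre markers and some denervation markers passed with cold, as did Kcnn1 and Scn4a. The Kcna7 call was in knockouts alone, where 4 of 10 slow fibre and 1 of 11 denervation markers passed (1.38% of all genes). In controls, where Kcna7 did not pass, 5 of 10 and 2 of 11 passed (0.853% of all genes). Of 10 slow fibre markers, 9 rose with cold over both genotypes, and their sum went from 6246 to 16775 CPM in controls and 8618 to 14644 CPM in knockouts at room temperature to 18555 to 25078 CPM and 13355 to 30964 CPM in the cold. Of 9 tested fast fibre markers, Casq1 rose and Myoz1 fell, and the ranges of the sum overlapped in all groups. Of 11 tested markers of denervation and regeneration, 5 rose with cold over both genotypes (Runx1, Sln, Chrna1, Chrnd and Myh3). Chrna1 and Chrnd are the same genes counted in the synapse list above. Without a threshold, 4 of the 11 were lower. The sums were 322 to 793 CPM and 335 to 1559 CPM at room temperature and 339 to 654 CPM and 444 to 962 CPM in the cold, in controls and knockouts. Their means were 530 and 718 CPM at room temperature and 490 and 688 CPM in the cold. With cold over both genotypes 1 of 6 skeletal muscle markers rose (Mb, 0.54 ± 0.13), 1 of 9 endothelial markers fell (Cdh5), 3 of 9 macrophage and neutrophil markers and 1 of 9 adipocyte markers (Retn) rose, and 0 of 8 smooth muscle and 0 of 6 fibroblast markers passed. The part of fibre type, denervation or other cells in the channel gene values was not tested.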

How the data were processed

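Gastrocnemius RNA of 31 rats was sequenced as 3′ tags and the authors deposited raw counts per gene, which are the values analysed. They also deposited a normalized table, a signal made by dividing the counts by size factors; it differed from the raw counts so divided by at most 5.23e-10 and was otherwise not used. The submitters' processing notes name Rnor 6.0 and DESeq2 1.22.2; for aligner, counter and use of strand the entry is "not given in the sources used here". Every listed gene has a total of at least 93 counts. Symbols came with 10519 of 11289 genes.

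Counts were normalized by TMM and tested with edgeR 4.0.16 (limma 3.58.1, R 4.3.3): quasi-likelihood fit, 1 mean per group over all 31 libraries (27 residual degrees of freedom), filterByExpr with a minimum count of 10 and total of 15 (10082 genes tested), Benjamini-Hochberg adjustment over those genes, threshold 0.05. Changes are log2, with SE taken as the change divided by the square root of F. The code was tested on simulated data. No 2 libraries of a group agreed within sampling noise (105 pairs, lowest chi-square per degree of freedom 5.65). Alternatives were DESeq2 1.42.0, its size factors in edgeR, no filter, only the groups compared, the first principal component as covariate, and libraries left out. Named members are those that passed, the 5 smallest p values of each comparison, the 8 most abundant and 11 fixed by role. The members and gene lists were chosen with earlier results of these data known. The values of 3 members are not reported here.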

Additional observations from a re-analysis of the deposited data

Results flagged for a closer look

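In groups of 7 or 8 rats, the highest and lowest library of each named channel gene was compared with the rest by Dixon's gap over range. The gap and range were taken on log2 CPM, while the values below are given as CPM. Of 100 gene and group pairs, 2 were past the 95% limit, where chance gives about 1 in 20. Kcnab1 in controls at room temperature was 1.36 CPM in animal 3, while the other 7 animals spanned 3.66 to 7.93 CPM. Scn4a in cold controls was 3.72 CPM in animal 17, while the other 7 spanned 1.53 to 2.25 CPM; animal 17 is among the libraries at the high end of the first principal component.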

How the results depend on the processing

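The 3 calls among the channel genes lay close to the threshold: leaving out 1 library took each across it in 11 to 18 of 31 cases, with the log2 change between -1.08 and -0.84 for Kcna7, -0.72 and -0.60 for Kcnn1 and -0.66 and -0.51 for Scn4a. Brackets give the share of members, against the share of all genes at that setting. Cold in the controls called 1 member (Cacng6, adjusted p = 0.0315) with the first principal component as covariate (2.38%, against 3.76%) and 0 otherwise. The Cacng6 difference was -0.41 in that fit and -0.32 without the covariate. With control animals 1 and 2 left out, and no covariate, it was 0.0036 (adjusted p = 0.992). Cold in the knockouts called 3 with that covariate (7.14%, against 6.69%), 3 in DESeq2 (5.56%, against 2.91%) and 0 with only the groups compared in the fit (against 0.543%), and 0 to 2 with 1 library left out. Cold over both genotypes called 4 with no filter (7.41%, against 5.16%), 6 with the covariate (14.3%, against 12.6%) and 4 in DESeq2 (7.41%, against 7.04%), and 0 to 3 with 1 library left out. Without control animals 1 and 2 it called 3 (Cacnb1, Kcna7 and Cacna1s; 6.98%, against 7.2%), and without the 7 libraries at the high end of the first component, an alternative added after seeing the data, also 3 (Kcna7, Kcnn1 and Cacna1s; 6.98%, against 5.28%). The 3 genotype comparisons and the interaction called 0 members in every setting tried. No named gene changed sign past a threshold. No paired analysis was possible because every animal carries its own number. Members with a few counts a library, such as Kcnn1, are limited by depth.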

Other observations

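The library of cold control animal 17 held the highest value of its group in 16 of the 42 tested channel genes (38.1%, against 28.8% of all genes), and that of cold knockout animal 28 in 15 (35.7%, against 28.6%). In GRCr8 Scn1a, Scn2a, Scn3a and Scn7a lie on chromosome 3, each within 1 Mb of at least 2 of the others. Their cold differences in knockouts did not pass, and their group means lay between 0.848 and 1.89 CPM. Among members that the filter left untested, Kcnmb4 had 0 counts in 2 of the 8 controls at room temperature and in none of the other 23 libraries.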
